A study of Mus musculus with 3 samples.

Results

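Transcripts of 10 genes of the integrated stress response were followed through mouse islets after Taf4 inactivation: Ddit3, Atf4, Atf5, Trib3, Chac1, Asns, Sesn2, Nupr1, Cebpb and Ppp1r15a. These are 10 of the 17226 genes listed in at least 1 of the 3 single-cell RNA-seq libraries. All 10 are listed in every library. They were taken by name as genes of this response, with earlier results of these data known. Counts of them set beside the share of all genes are therefore descriptions and not tests. Each library was 1 sample of C57/Bl6 Langerhans islets, dissociated, sorted for live cells and captured with the 10X Genomics 3′ assay. The WT library came from 1 mouse of the wild-type genotype; the study describes its controls as carrying the Cre transgene with intact Taf4 and receiving tamoxifen like the mutants, and the labels do not state this for the mouse sequenced. The 2 mutant libraries (TAF4 KO) each pooled 2 mice, taken 1 week or 5 weeks after inactivation. In these mutants floxed Taf4 was deleted through Cre-ERT2 under the Ins1 promoter, which acts in beta cells, by tamoxifen given on 3 days at 11 to 13 weeks of age. Transcript molecules (UMIs) were summed per library over cells chosen by their hormone share. In WT and 5-week cells, beta cells had 20% or more of UMIs from Ins2 and under 3% from Gcg, alpha cells 15% or more from Gcg and under 10% from Ins2, and delta cells 5% or more from Sst. At 1 week the minimum shares were 5%, 8% and 1.5%, in cells of 5000 or more UMIs. This gave 8269 beta, 2772 alpha and 619 delta cells in WT, 561, 172 and 37 at 1 week, and 5557, 2938 and 1242 at 5 weeks.

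The integrated stress response is entered when a kinase phosphorylates the translation initiation factor eIF2, which lowers general translation and favours translation of a few mRNAs, among them that of the transcription factor ATF4. ATF4 then activates genes for amino acid supply, redox balance and translation, and, when stress persists, the gene of the pro-apoptotic factor CHOP (Ddit3). Beta cells make very large amounts of proinsulin in the endoplasmic reticulum, and PERK, the kinase that senses unfolded protein there, is known to be needed for their survival. Because much of the control of ATF4 lies in translation, mRNA counts show only a part of the pathway's activity.

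ATF4 acts with C/EBP partners on composite elements whose core reads TGATGNAA. In the RefSeq windows of GRCm38.p6 that run from 250 bases before to 50 bases after a start site, this motif was found on either strand at 4 of the 10 genes (Trib3, Chac1, Asns and Nupr1) and in 3.97% of all 32851 windows. A second form, TGNNGCAA, has fewer fixed letters and can match at the same site as the first, as it did in Chac1 and Nupr1. It was found at 5 genes (Atf5, Trib3, Chac1, Sesn2 and Nupr1) and in 11.4% of windows. Either form was found at 6 genes and in 14.2% of windows. The endoplasmic reticulum stress element, the CCAAT-containing motif of ATF6, was found at 0 of the 10 genes and in 0.119% of windows. These motifs were chosen after the sequences had been seen, and a match is a run of letters, not a measured binding site. The 250 bases before the start are shown for the 4 genes with the first motif, 5′ to 3′ on the gene's strand, with matches to either of the first 2 motifs in capitals.
Chac1: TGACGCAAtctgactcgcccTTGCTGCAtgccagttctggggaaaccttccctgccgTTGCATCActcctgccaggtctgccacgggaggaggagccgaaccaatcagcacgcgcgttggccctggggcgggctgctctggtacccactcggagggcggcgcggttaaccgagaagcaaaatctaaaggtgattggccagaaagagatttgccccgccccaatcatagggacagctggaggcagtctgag
Trib3: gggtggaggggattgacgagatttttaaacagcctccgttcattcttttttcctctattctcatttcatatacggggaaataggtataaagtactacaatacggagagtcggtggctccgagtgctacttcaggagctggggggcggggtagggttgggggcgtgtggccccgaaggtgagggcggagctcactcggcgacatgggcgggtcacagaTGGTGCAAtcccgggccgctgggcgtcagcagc
Asns: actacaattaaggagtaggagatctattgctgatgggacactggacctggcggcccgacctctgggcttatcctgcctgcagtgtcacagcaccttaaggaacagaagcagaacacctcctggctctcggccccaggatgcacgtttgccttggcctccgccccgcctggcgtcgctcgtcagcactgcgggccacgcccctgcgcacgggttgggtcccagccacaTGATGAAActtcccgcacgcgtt
Nupr1: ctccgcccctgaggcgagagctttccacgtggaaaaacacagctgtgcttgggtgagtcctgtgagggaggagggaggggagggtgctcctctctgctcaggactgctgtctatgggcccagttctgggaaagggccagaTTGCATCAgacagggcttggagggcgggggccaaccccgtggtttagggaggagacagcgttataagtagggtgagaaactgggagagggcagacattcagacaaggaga
The Chac1 window (chr2:119350992-119351241, plus strand) held matches beginning 250, 230 and 193 bases before the start, the last of them to both forms. In Trib3 (chr2:152344061-152344310, minus strand) the match shown begins 33 bases before the start, and the TGATGNAA match lies 15 bases into the gene. The Asns match (chr6:7693210-7693459, minus strand) begins at 23 bases and the Nupr1 match (chr7:126625471-126625720, minus strand) at 110 bases before the start.

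Several differences between the libraries bear on every comparison. Taf4 itself was at 4.68 CPM (counts per 1000000 UMIs of the cells summed) in WT beta cells, 7.55 at 1 week and 3.52 at 5 weeks, which is 75, 113 and 97 UMIs, and a 3′ tag can lie outside the deleted part, so these counts check nothing about the deletion. The libraries are described as made from male mice, but the WT library held 17357 UMIs of Xist, the RNA of X inactivation, and 0 of 4 Y-linked genes, while the 1-week library held 17 and the 5-week library 11 Xist UMIs and both held Y-linked transcripts. Sex, animal and library therefore cannot be told apart from genotype. Median depth in beta cells was 1656 UMIs in WT, 24764 at 1 week and 3899 at 5 weeks, no WT cell had more than 1489 detected genes, and 7 hormone genes took 68.0%, 42.8% and 66.5% of beta-cell UMIs. The summed level of 10 acinar enzyme genes was 4971 to 14845 CPM in the 3 WT cell types, 6.43 to 15.9 at 1 week and 565 to 2586 at 5 weeks. Of the other markers, those of beta cells summed to 241590, 63377 and 83861 CPM in the beta cells of the 3 libraries, those of alpha cells to 39704, 8277 and 17691 in alpha cells and those of delta cells to 8110, 7537 and 7829 in delta cells. The libraries shared 2 to 33 barcodes per pair. Each condition was 1 library, so differences between conditions have no replicate check and no test, and the 95% intervals given in parentheses cover counting error only. Fewer cells in a stressed state and less RNA per cell cannot be told apart in such sums.

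In beta cells, all 10 genes were at least 3.38-fold higher in the 1-week mutant than in WT, where 57.6% of all genes were 2-fold or more higher. By 5 weeks 9 of the 10 lay 2-fold or more below their 1-week level, as did 49.5% of genes. Of the 10, only Ddit3, Chac1 and Ppp1r15a were still 2-fold or more above WT, beside 6.05% of genes, whereas Nupr1 was 4.18-fold below it, beside 4.39% of genes lower by 2-fold or more. At 1 week 9 of the 10 were 2-fold or more above WT in alpha cells, beside 32.3% of genes, and 8 in delta cells, beside 20.4%. Ppp1r15a was among neither.

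**Figure D1:**
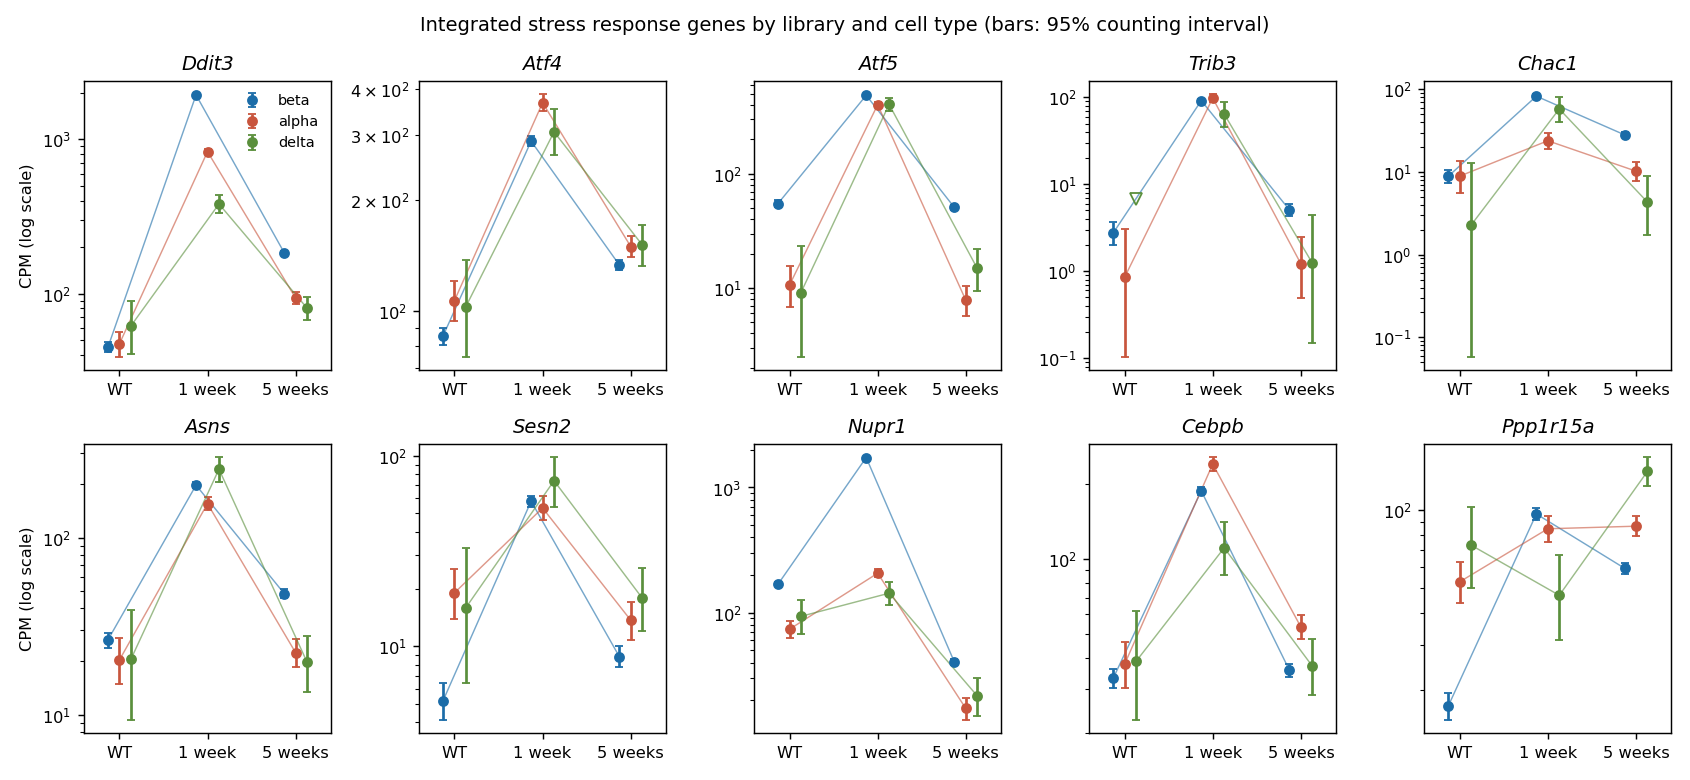
Level of each gene in CPM (log axis) in the WT, 1-week and 5-week libraries, with 1 point per cell type (beta blue, alpha red, delta green) and bars for the exact 95% counting interval; the open triangle marks the upper limit for Trib3 in WT delta cells, where 0 UMIs were counted. The points peak at 1 week in every panel except that of Ppp1r15a, where alpha cells are higher at 1 week than in WT and no lower at 5 weeks, and delta cells are lowest at 1 week.

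Among the transcription factors, Ddit3 (chromosome 10, 127290793 to 127296291 in GRCm38.p6, the build of all positions given here), which encodes CHOP, showed the largest fold change of the 10 in beta cells. Its level was 44.8 CPM (41.6 to 48.2) in WT beta cells, 1942 CPM (1920 to 1964) at 1 week and 184 CPM (179 to 189) at 5 weeks. That is 43.4-fold over WT at 1 week and 4.11-fold at 5 weeks. The 3 beta-cell intervals lay apart from each other. In alpha cells the level was 47.1, 833 and 93.4 CPM in WT, 1-week and 5-week cells, and in delta cells 61.6, 381 and 80.4 CPM. The intervals of the 3 WT cell types overlapped, while at 1 week beta, alpha and delta cells followed each other without overlap and at 5 weeks beta cells stood above the other types.

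Atf4 (chromosome 15, 80255184 to 80257545), the central factor of the response, had the smallest 1-week over WT ratio of the 10 in beta cells. It was at 85.4 CPM (80.9 to 90.0004) in WT beta cells, 288 CPM (280 to 297) at 1 week and 133 CPM (129 to 138) at 5 weeks, or 3.38-fold and 1.56-fold over WT. Alpha cells held 106, 367 and 149 CPM and delta cells 103, 306 and 151 CPM. The order of the libraries was thus the same in the 3 cell types, and at 1 week alpha cells held 127% and delta cells 106% of the beta-cell level.

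Cebpb (chromosome 2, 167688915 to 167690432) encodes a C/EBP factor that pairs with ATF4 and CHOP. Its beta-cell level was 33.1 CPM (30.4 to 36.0) in WT, 188 CPM (181 to 195) at 1 week and 35.7 CPM (33.5 to 38.0) at 5 weeks, so the WT and 5-week intervals overlapped. Alpha cells held 37.7, 241 and 53.3 CPM and delta cells 38.8, 111 and 37.1 CPM.

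Atf5 (chromosome 7, 44812256 to 44816658), a factor of the same class whose mRNA is also translated under eIF2 phosphorylation, was a gene of beta cells in WT. There it stood at 54.9 CPM (51.4 to 58.7), against 10.6 CPM (6.86 to 15.7) in alpha and 9.12 CPM (2.49 to 23.4) in delta cells. At 1 week the 3 cell types were at 487, 402 and 405 CPM, and at 5 weeks at 50.8, 7.81 and 14.8 CPM. The gap between beta cells and the others was therefore small at 1 week, with alpha and delta intervals overlapping, and wide in the other libraries. The 1-week level was 38.0-fold over WT in alpha cells and 44.4-fold in delta cells, the latter against 4 WT UMIs, and 8.86-fold in beta cells.

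The genes that restrain the response differed from each other. Trib3 (chromosome 2, 152337425 to 152344060) encodes a pseudokinase that inhibits ATF4 and CHOP. It was near the limit of detection outside the 1-week library, at 2.74 CPM (1.99 to 3.68) in WT beta cells, 91.8 CPM (87.0 to 96.8) at 1 week and 5.08 CPM (4.27 to 5.99) at 5 weeks. Alpha cells held 0.848, 98.2 and 1.22 CPM, from 2, 358 and 7 UMIs. WT delta cells had 0 Trib3 UMIs, which allows up to 6.84 CPM, and the 1-week level of 64.3 CPM is thus at least 9.40-fold higher. Delta cells at 5 weeks were at 1.24 CPM, from 2 UMIs.

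Ppp1r15a (chromosome 7, 45522917 to 45526268) encodes GADD34, the phosphatase subunit that reverses eIF2 phosphorylation. In beta cells it was at 17.3 CPM (15.4 to 19.5) in WT, 96.4 CPM (91.5 to 102) at 1 week and 59.4 CPM (56.6 to 62.4) at 5 weeks. In WT its levels in alpha cells, 52.6 CPM (43.7 to 62.7), and delta cells, 73.0 CPM (49.9 to 103), lay above that in beta cells. It was the only one of the 10 whose highest level fell in the 5-week library, at 141 CPM (123 to 161) in delta cells, against 46.6 CPM (31.2 to 67.0) in the 37 delta cells of 1 week. Alpha cells were at 84.5 CPM at 1 week and 86.5 CPM at 5 weeks, with overlapping intervals.

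The metabolic targets of ATF4 peaked at 1 week in all 3 cell types. Asns (chromosome 6, 7675165 to 7693209), asparagine synthetase, was at 26.4 CPM (24.0 to 29.1) in WT beta cells, 197 CPM (190 to 205) at 1 week and 48.3 CPM (45.7 to 51.0) at 5 weeks. In alpha cells it was at 20.4, 155 and 22.4 CPM and in delta cells at 20.5, 243 and 19.8 CPM. At 5 weeks Asns thus stood above WT in beta cells, 1.83-fold, while the WT and 5-week intervals overlapped in alpha and in delta cells. Chac1 (chromosome 2, 119351242 to 119354326), which degrades glutathione, was at 8.85 CPM (7.46 to 10.4) in WT beta cells, 82.6 CPM (78.1 to 87.3) at 1 week and 28.2 CPM (26.2 to 30.2) at 5 weeks. Alpha cells held 8.91, 23.9 and 10.2 CPM and delta cells 2.28, 57.9 and 4.33 CPM, the first of these from 1 UMI. Chac1 therefore stayed 3.18-fold over WT at 5 weeks in beta cells, while its WT and 5-week intervals overlapped in both other types. Sesn2 (chromosome 4, 132492804 to 132510456) encodes a sestrin that restrains mTORC1 when leucine is short. Its beta-cell level was 5.17 CPM (4.12 to 6.42) in WT, 57.8 CPM (54.0 to 61.8) at 1 week and 8.85 CPM (7.77 to 10.0) at 5 weeks. Its WT level was higher in alpha cells, 19.1 CPM (13.9 to 25.5), and at 1 week the intervals of the 3 cell types, at 53.2 to 74.0 CPM, overlapped.

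Nupr1 (chromosome 7, 126623246 to 126625470), a small chromatin-bound stress protein also known from acinar cells in pancreatitis, was the only gene 2-fold or more below WT at 5 weeks. In beta cells it was at 169 CPM (163 to 175) in WT, 1733 CPM (1712 to 1754) at 1 week and 40.4 CPM (38.1 to 42.8) at 5 weeks. Alpha cells were at 73.8, 207 and 17.2 CPM, and delta cells at 93.5, 143 and 21.6 CPM with overlapping WT and 1-week intervals. In all 3 cell types the 5-week level was over 4-fold below WT. In the WT library, the 79 barcodes with 20% or more of UMIs from acinar markers held 3014 CPM of Nupr1 (2778 to 3264). Leaving out cells with 2% or more of acinar UMIs (259 beta, 288 alpha and 86 delta cells of WT) gave WT levels of 152 CPM in beta, 58.6 in alpha and 70.9 in delta cells. The 5-week log2 ratios over WT were then −1.91 (−2.02 to −1.81) in beta, −1.77 (−2.17 to −1.38) in alpha and −1.71 (−2.47 to −0.93) in delta cells, so Nupr1 was still below WT without these cells, by less than with them. The cells kept can still hold acinar RNA, up to 2% of their UMIs, and its part in their Nupr1 level was not tested. The 1-week ratios became 3.51 (3.45 to 3.57) in beta, 1.82 (1.54 to 2.10) in alpha and 1.01 (0.38 to 1.69) in delta cells, which brought delta cells past 2-fold.

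Levels of most genes were shifted between libraries, as was the share of hormone RNA, whose part in the shift was not tested. The median gene with 100 or more UMIs over both sums had a 1-week over WT log2 ratio of 1.15 in beta, 0.63 in alpha and 0.33 in delta cells, and a 5-week over WT ratio of 0.16, 0.05 and 0.10. In beta cells at 1 week 10 of the 10 genes were 2-fold or more above WT, beside 57.6% of 9220 genes. Trib3, with 44 UMIs in WT beta cells, and Sesn2, with 83, reached 100 UMIs only through the 1-week side. Relative to the median gene 9 of the 10 passed 2-fold, beside 8.08% of genes, and the exception was Atf4 with a relative log2 ratio of 0.60 (0.52 to 0.69). In the 1150 barcodes of 1 week under 5000 UMIs this count was 5, for which the share of all genes was not computed. The largest relative values were 4.29 for Ddit3 (4.18 to 4.40) and 3.91 for Trib3 (3.48 to 4.38), above 99.9% of genes, and the median of the 10 was 2.03. At 5 weeks 3 genes were 2-fold or more higher in beta cells, beside 6.05% of genes (3.73% relative to the median gene), and 1 was lower, beside 4.39% (5.96% relative). Relative to the median gene Ddit3 was at 1.88 (1.76 to 1.99), Ppp1r15a at 1.61 (1.43 to 1.80), Chac1 at 1.51 (1.25 to 1.77) and Nupr1 at −2.23 (−2.33 to −2.13). The values of Atf4, Trib3, Asns and Sesn2 were 0.48 to 0.72, and those of Cebpb and Atf5 −0.05 and −0.28. From 1 week to 5 weeks 9 genes were 2-fold or more lower in beta cells, beside 49.5% of genes, and 7 were so relative to the median gene, beside 5.44%. The 3 comparisons share their libraries, so they are not independent of each other.

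**Figure D2:**
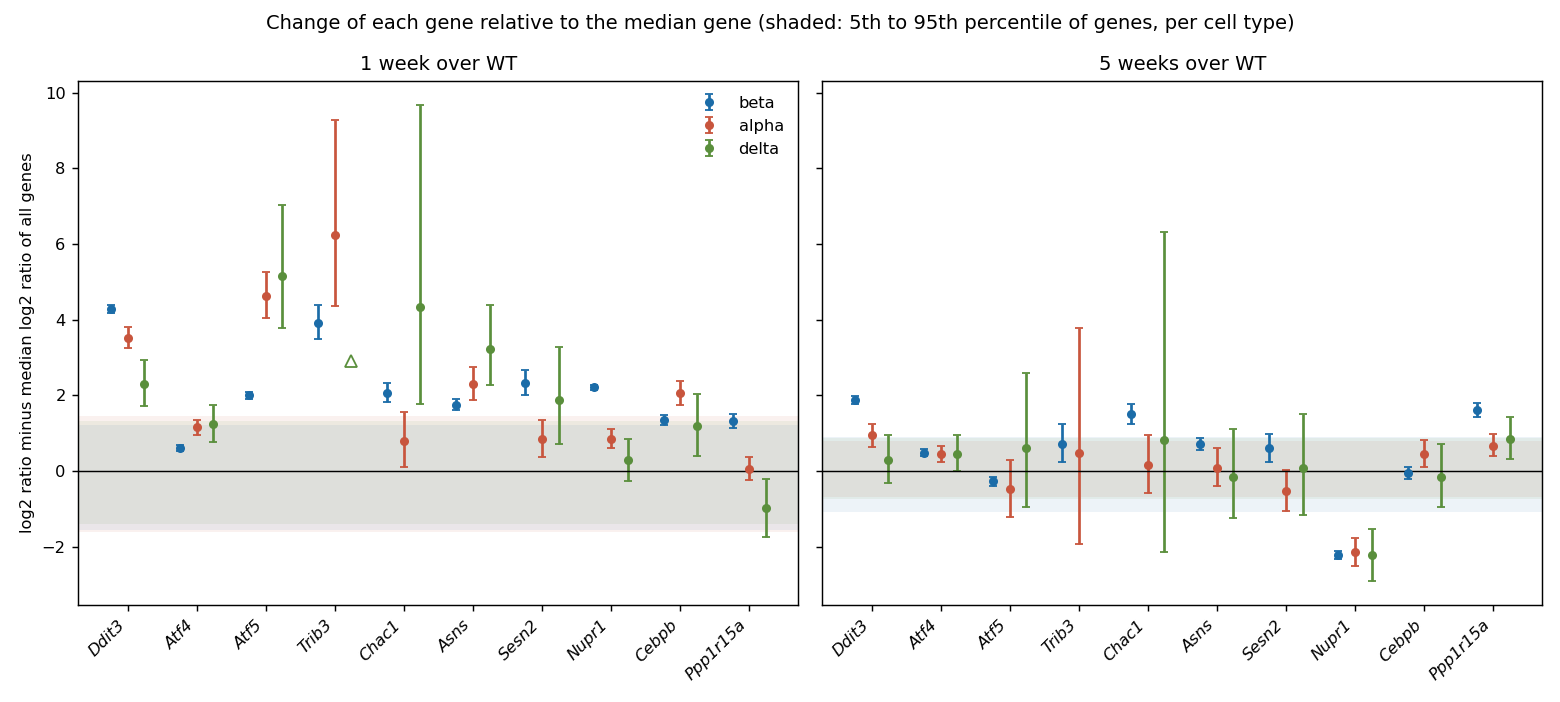
Log2 ratio of each gene over WT minus that of the median gene, at 1 week (left) and 5 weeks (right), for beta (blue), alpha (red) and delta (green) cells, with exact 95% counting intervals; shading spans the 5th to 95th percentile of all genes with 100 or more UMIs, per cell type, and the open triangle is a lower bound against 0 WT UMIs. At 1 week most points lie above the shading, and at 5 weeks the beta-cell points of Ddit3, Chac1 and Ppp1r15a and the alpha-cell point of Ddit3 lie above it and Nupr1 below it in the 3 cell types.

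Alpha and delta cells, in which the Ins1 promoter is not known to be active, also differed from WT at 1 week. The study describes cells of mixed hormone identity and beta cells turning into alpha-like cells after the inactivation. Cell types here rest on hormone shares, which cannot tell such cells from other alpha and delta cells. Whether the alpha and delta sums of the mutants held former beta cells was not tested. At 1 week 9 of the 10 genes were 2-fold or more higher in alpha cells, beside 32.3% of 5222 genes, and relative to the median gene 6 were (Ddit3, Atf4, Atf5, Trib3, Asns and Cebpb), beside 12.0%. Of these 6, Trib3 had 2, Atf5 25, Asns 48 and Cebpb 89 UMIs in WT alpha cells. They reached 100 UMIs only through the 1-week side. In delta cells 8 were higher, beside 20.4% of 1328 genes, and 8 relative to the median gene, beside 10.0%. Only 5 of the 10 reached 100 UMIs in the delta-cell comparison, and of these 4 were higher on either scale. Each of the 5 had under 100 UMIs in WT delta cells. The shares of all genes cover only genes that reached 100 UMIs. Trib3, Chac1, Sesn2 and Cebpb were counted below 100 UMIs, against 0, 1, 7 and 17 WT UMIs. The gene that stayed below 2-fold in alpha cells was Ppp1r15a, and in delta cells Nupr1 and Ppp1r15a did, Nupr1 only with the acinar-rich WT cells kept. At 5 weeks 0 genes were 2-fold or more higher in alpha cells (2.78% of genes) or in delta cells (4.79%), and Nupr1 alone was lower, beside 1.47% and 1.57% of genes (1.61% and 2.12% relative to the median gene). Of the 10 genes 7 reached 100 UMIs in this alpha-cell comparison, but only 3 in that of delta cells. Nupr1 was not among the latter, with 41 UMIs in WT and 35 at 5 weeks, and Trib3 gave no ratio there. Ddit3 missed 2-fold narrowly in alpha cells, at 1.98-fold with a log2 interval of 0.69 to 1.30. From 1 week to 5 weeks 9 genes were lower in alpha cells, beside 26.3% of genes, and 7 relative to the median gene, beside 8.85%. In delta cells 9 were lower, beside 11.2% of genes, and 8 relative to the median gene, beside 4.59%, while Ppp1r15a was 3.02-fold higher, beside 4.98% (6.98% relative). Among the 7 that reached 100 UMIs in this delta-cell comparison, 6 were lower, and 5 relative to the median gene.

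Free RNA from beta cells can add counts to the other types. At 1 week alpha cells held 1.09% of the beta-cell level of Ins1 and delta cells 1.46%, whereas for the 10 genes alpha cells held from 11.9% (Nupr1) to 128% (Cebpb) of the beta-cell level and delta cells from 8.26% (Nupr1) to 128% (Sesn2). Each of these shares was above that of Ins1, and the part of free RNA in the alpha and delta levels was not tested. In WT and at 5 weeks the Ins1 share was 5.01% to 9.06%.

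Set against alpha cells of the same library, beta cells had 3 genes 2-fold or more higher in WT (Atf5, Trib3 and Nupr1, beside 4.48% of genes) and 2 lower (Sesn2 and Ppp1r15a, beside 20.6%). The counts relative to the median gene were also 3 and 2, beside 9.24% and 5.24%. The Trib3 ratio had an interval that included 0 on the log2 scale. At 1 week Ddit3 was 2.33-fold, Chac1 3.46-fold and Nupr1 8.39-fold higher in beta than in alpha cells, 3 genes beside 8.06% (3 relative to the median gene, beside 8.44%). At 5 weeks 5 genes were higher, beside 3.27%: Atf5 6.50-fold, Trib3 4.18-fold, Chac1 2.75-fold, Nupr1 2.35-fold and Asns 2.16-fold. Relative to the median gene Ddit3 joined them, 6 genes beside 7.19%. Against delta cells 2 genes were higher in WT (Atf5 and Chac1, the latter with an interval that included 0), beside 2.77% of genes, and 2 lower (Sesn2 and Ppp1r15a), beside 46.6%. Relative to the median gene 4 were higher, beside 10.6%, and Ppp1r15a alone lower, beside 7.24%. At 1 week Ddit3 was 5.09-fold, Nupr1 12.1-fold and Ppp1r15a 2.07-fold higher in beta than in delta cells, beside 4.14%, and relative to the median gene Cebpb was the fourth, beside 7.98%. At 5 weeks 5 genes were higher, beside 1.52%, and Sesn2 and Ppp1r15a were lower, beside 51.1%. Relative to the median gene 6 were higher, beside 7.7%, and 0 lower. Sesn2 then stood at the median gene.

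Depth differed between libraries, so levels were also read within bands of depth. Genes with more UMIs weigh more in a summed level. In the 1-week beta-cell barcodes of 500 to 1000 UMIs, Ddit3 held 501 and Nupr1 467 of the 1445 summed UMIs. The summed level of the 10 genes in beta cells of 500 to 1000 UMIs was 668 CPM (593 to 750) in 502 WT cells, 745 CPM (616 to 892) in 205 cells of 5 weeks and 3287 CPM (3119 to 3461) in 718 barcodes of 1 week, which carry the 1-week hormone shares but lie below its minimum depth. From 2000 to 5000 UMIs it was 401 CPM in WT, 676 at 5 weeks and 2201 at 1 week. The 1-week library thus lay above WT and 5 weeks at equal total depth, with intervals apart, but hormone genes took 68.8%, 64.8% and 13.7% of UMIs in the second of these bands. Scaled to the UMIs outside hormone genes, the levels there were 1286 CPM in WT, 1923 at 5 weeks and 2551 at 1 week, a much smaller gap between the mutant libraries. In the band of 500 to 1000 UMIs the levels on this scale were 1641 CPM in WT and 5491 at 1 week. Within the 1-week library the level was 3173 CPM in cells of 5000 to 10000 UMIs, 6953 and 6862 CPM in the next 2 bands and 2245 CPM in the 96 cells of 40000 or more UMIs, whose hormone genes took 62.3% of UMIs. Just outside and inside the 5000 UMI minimum, 54 barcodes of 4000 to 5000 UMIs were at 2649 CPM and 21 cells of 5000 to 6000 UMIs at 2024 CPM.

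**Figure D3:**
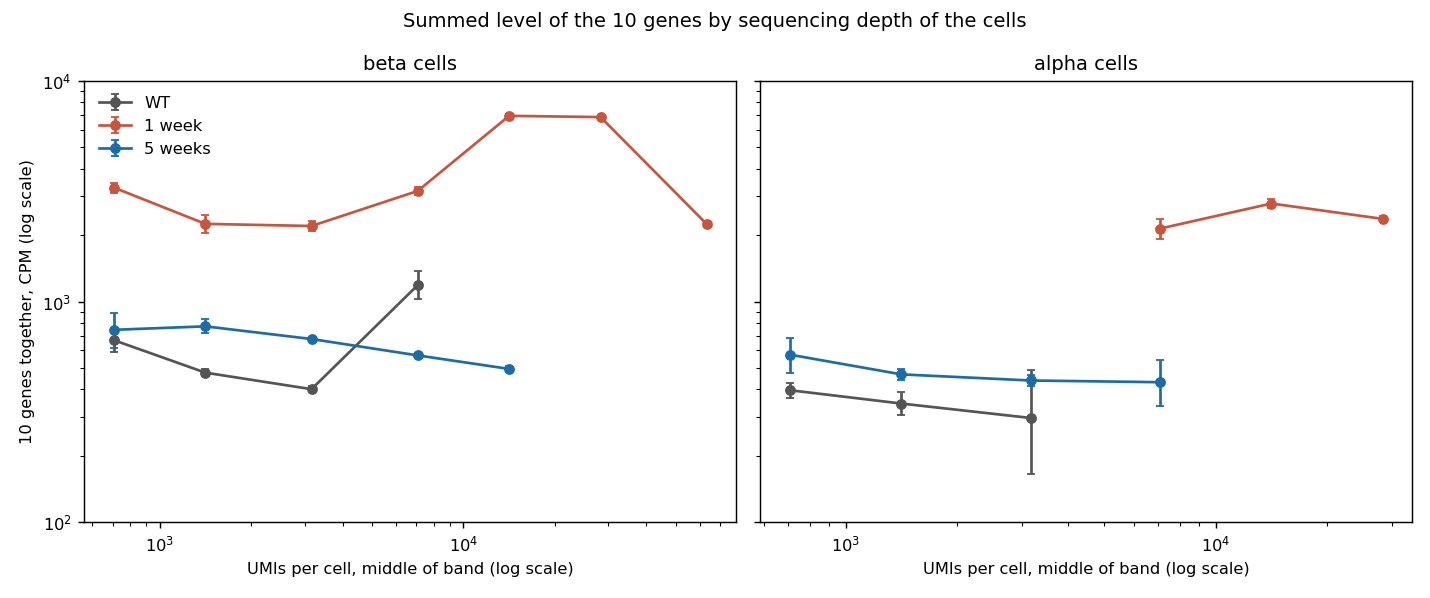
Summed CPM of the 10 genes (log axis) against UMIs per cell (log axis, middle of each band) in beta (left) and alpha cells (right) of WT (grey), 1 week (red) and 5 weeks (blue), with 95% counting intervals; 1-week points below 5000 UMIs are barcodes outside the cell definition. In every band that the 1-week library shares with another, its point is the higher, and the WT point at 5000 to 10000 UMIs comes from 26 cells, 1 of them rich in acinar transcripts. Genes with more UMIs weigh more in the sum.

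Whether the genes were high in the same cells was asked with the Pearson correlation over beta cells, each thinned to 5000 UMIs, as log2(1 + UMIs). The points of each correlation are cells of 1 library that share depth and composition effects, so the values are descriptions. In the 561 beta cells of 1 week, 28 of the 45 pairs reached r of 0.2, beside 0.563% of all gene pairs, with a median r of 0.22 over the 45 and a range of 0.067 to 0.60. With cells matched at 2000 UMIs outside the hormone genes instead, 8 of the 45 did, beside 0.0489% of pairs. The highest were Ddit3 with Nupr1 (0.60), with Atf4 (0.52) and with Atf5 (0.48), and the lowest involved Chac1 and Sesn2, the genes with fewest UMIs per cell. In 2073 beta cells of 5 weeks, where 8 of the 10 genes had a mean of 0.05 UMIs or more, 0 of 28 pairs reached 0.2, beside 0.0073% of gene pairs, and the highest r was 0.12 (Ddit3 with Atf4). Means were much lower at 5 weeks, 0.85 UMIs of Ddit3 per thinned cell against 10.998 at 1 week, and in counts this sparse a low r is no finding. Thinned to 1000 UMIs, where WT had 7767 cells, the count was 6 of 45 at 1 week, beside 0.167%, 0 of 3 in WT, beside 0.0575%, and 0 of 10 at 5 weeks, beside 0.0427%. The 172 alpha cells of 1 week gave 2 of 45 pairs, beside 1.11%, and the 37 delta cells 29 of 45, beside 14.2%. The 30 alpha cells of 5 weeks gave 2 of 21, beside 16.5%. In WT only 26 beta cells reached the depth of 5000 UMIs, giving 6 of 21 pairs beside 18.0%. The genes most like the sum of the 10 there were acinar enzymes, led by Cel (r of 0.80). Of the 6.04 summed UMIs per thinned WT cell, Nupr1 had 4.46, with 98 in the highest cell.

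**Figure D4:**
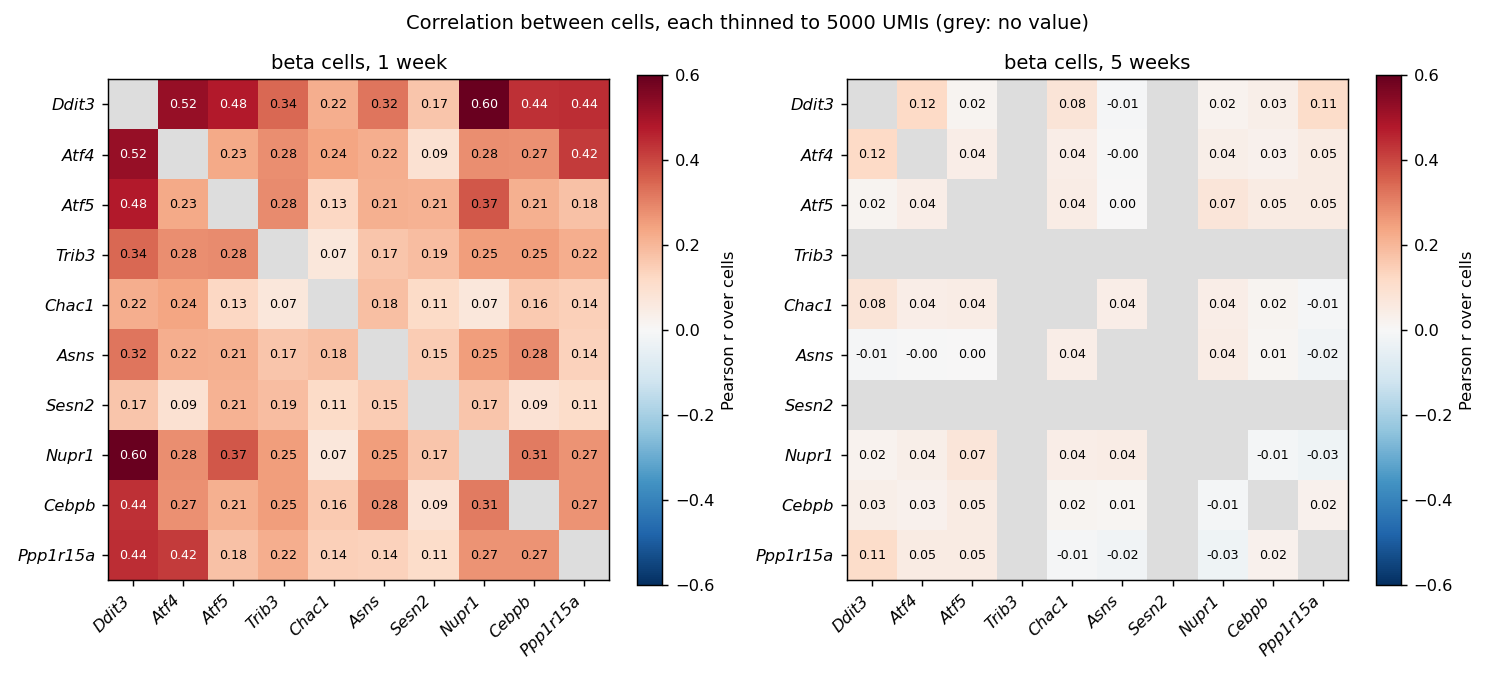
Pearson r over beta cells for each pair of genes after thinning each cell to 5000 UMIs, in 561 cells of 1 week (left) and 2073 cells of 5 weeks (right), coloured from −0.6 (blue) to 0.6 (red), with grey on the diagonal and for genes below a mean of 0.05 UMIs. All 45 values are positive at 1 week, strongest in the Ddit3 row, and all 28 values at 5 weeks lie between −0.027 and 0.12.

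The beta cells of 1 week were uneven. Of 561 cells 103 had 0 Ddit3 UMIs after thinning and the highest had 155, and the variance was 20.1 times the mean for Ddit3 and 23.6 times for Nupr1, against 1.06 for the median gene. The tenth of cells with most Nupr1 held 48.8% of its UMIs. Between the 141 cells with least Ddit3 and the 140 with most, mean UMIs per 5000 went from 0.33 to 18.2 for Nupr1, from 0.51 to 3.01 for Atf4, from 0.057 to 0.73 for Trib3 and from 0.18 to 1.39 for Cebpb. Chac1 and Sesn2 did not follow to the end, at 0.54 and 0.32 in the 140 cells next above the lowest and 0.50 and 0.29 in the highest. The sum of the 10 genes had r of −0.58 with Ins1, −0.43 with Ins2, −0.39 with the mitochondrial share and 0.011 with log2 of the cell's own total UMIs. The last value describes a straight line only, while the summed level rose and then fell across the depth bands above. Thinned totals include hormone RNA, so its share can enter the values with Ins1 and Ins2. At 5 weeks the variance of Ddit3 was 1.81 times its mean, and r of the summed genes with Ins1 was −0.19. Of the 2.76 summed UMIs per thinned cell at 5 weeks, Ddit3 had 0.85 and Atf4 0.64.

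At 1 week most UMIs in the sum of the 10 came from Ddit3 and Nupr1. The genes whose counts followed this sum most closely, among 1040 with a mean of 0.5 UMIs or more, were Eif1 (r of 0.77), which takes part in start codon selection, Ftl1 (0.75), a ferritin chain, and Actg1 (0.72). They were followed by Actb, the metallothioneins Mt2 and Mt1, the endoplasmic reticulum chaperone Hspa5 (0.64), Gnai2, the tRNA synthetase Eprs (0.61) and Btf3. At 5 weeks the leading genes, among 495, included Actg1 (0.33), Fos (0.32), Hspa5 (0.31), Dnaja1, Ubb, Herpud1, Hspa8, Hsp90aa1 and Dnajb1 (0.29), most of them immediate early or heat shock genes. Actg1 and Hspa5 stood in both lists. Eif1 and Ftl1 had r of 0.14 at 5 weeks, and Dnaja1 had 0.10 at 1 week.

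Against lists of related genes, the summed 10 had r of 0.76 with ATF4 targets and tRNA synthetases, 0.67 with the IRE1 and ATF6 arms of the unfolded protein response and 0.48 with immediate early genes over the 1-week beta cells. Over the 5-week beta cells these values were 0.12, 0.27 and 0.35, and the immediate early value was 0.37 for Ddit3 and 0.20 for Ppp1r15a. The lists and the 10 genes had different numbers of UMIs in the 2 libraries, so the values are not compared between them. Cells were matched here, as for the single genes above, by total UMIs, so a cell's share of hormone RNA can enter each r. No value is given for cells matched outside the hormone genes or for lists of unrelated genes.

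The same lists were read by their levels in beta cells, relative to the median gene. Of 18 aminoacyl-tRNA synthetases with 100 or more UMIs, 18 lay above the median gene at 1 week and 9 were 2-fold or more higher, beside the 8.08% given above, led by Eprs (36.2 CPM in WT and 472 at 1 week), Mars and Cars. Of 12 genes of amino acid synthesis and one-carbon metabolism 5 were higher, among them Aldh1l2, Got1 and Phgdh (8.04 and 60.6 CPM), and 1 was lower, Cbs. Of 5 amino acid transporters 2 were higher, Slc3a2 (28.1 and 298 CPM) and Slc1a4. Of 13 other targets of ATF4 and CHOP 6 were higher, led by Gdf15 (0.873 and 17.4 CPM), Gadd45a and Sqstm1, while Atf3 and Txnip were lower. The 15 genes of the eIF2 kinases and eIF2 control had a median of −0.13 and 3 were higher, Eif2b5, Eif2ak1 and Eif2s2. Eif2ak3, which encodes PERK, had 8.92 CPM in WT and 14.7 CPM at 1 week, a relative log2 ratio of −0.43.

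For the other arms of the unfolded protein response the direction at 1 week depended on the scale. Of 22 genes of the IRE1 and ATF6 arms 7 were 2-fold or more higher in CPM, beside 57.6% of genes, and 2 lower, with a median log2 ratio of 0.48. On the scale relative to the median gene 0 were higher and 7 lower, beside 11.6% of genes, with a median of −0.67. On this relative scale Hspa5 was at 0.88 and Herpud1 at 0.39, while Xbp1 was at −0.57, Dnajb9 at −1.34 and Manf at −2.26. Of 16 immediate early and dissociation genes 14 were lower at 1 week, with Fos at 212 CPM in WT and 13.4 CPM at 1 week. At 5 weeks 15 of these 16 were higher, beside 3.73% of genes, with Fos at 1399 CPM. Of the 22 IRE1 and ATF6 genes 2 were then higher, Herpud1 (124 CPM in WT and 544 at 5 weeks) and Hspa5 (373 and 1411 CPM). The tRNA synthetases had 1 gene higher at 5 weeks, Eprs, with a list median of 0.33. Among the other targets the higher genes at 5 weeks were Ddit4 (10.7 and 42.3 CPM), Atf3 and Txnip. Levels of immediate early genes thus moved with Ddit3 and Ppp1r15a between WT and 5 weeks and opposite to them at 1 week, and their part in the levels of the 10 genes was not tested.

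**Figure D5:**
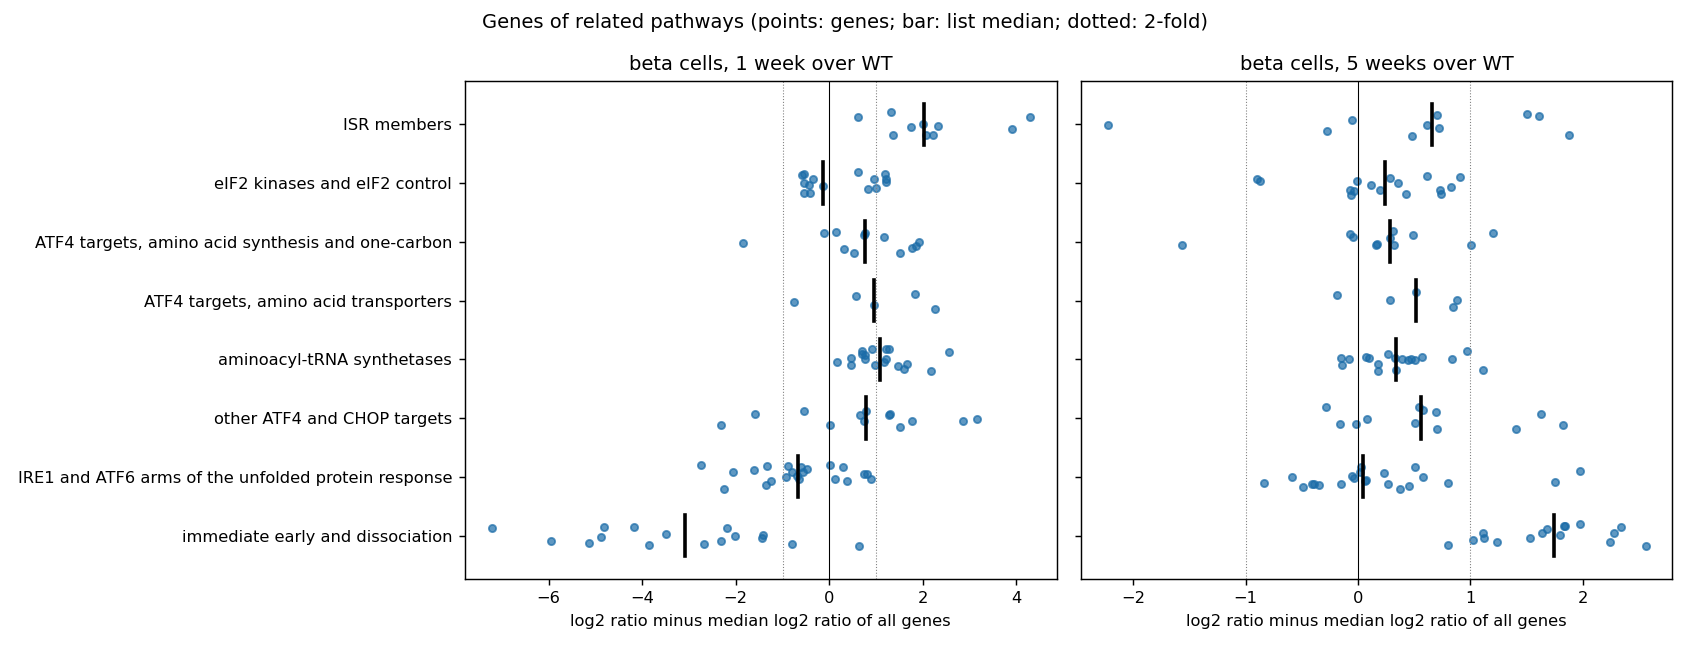
Log2 ratio over WT minus that of the median gene in beta cells at 1 week (left) and 5 weeks (right) for the genes of 8 lists, with 1 point per gene of 100 or more UMIs, a bar at each list's median and dotted lines at 2-fold. The medians of the 10 genes (2.03) and of the ATF4 target lists lie to the right at 1 week, and that of the immediate early genes lies to the left at 1 week (−3.09) and to the right at 5 weeks (1.74).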

How the data were processed

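Single-cell 3′ RNA-seq libraries of islet cells from WT, 1-week and 5-week mutant mice were analysed. The deposited values are whole-number counts of UMIs per gene and barcode; per the labels the authors used Cell Ranger 3.1, Seurat 3.1.4 and mm10, and their methods state that WT was scaled down to 12000 cells. The matrices were used as deposited, with no further filter on barcodes. Cells meeting the limits of 2 cell types (2 in WT, 1 at 1 week, and at 5 weeks 128 beta and delta and 73 alpha and delta) were left out, and no doublet caller was run here. The study's methods describe removal of likely doublets in WT only, by pairs of hormones and with DoubletFinder. The libraries can therefore differ in doublets, and the numbers of such cells are not compared. Cell types rest on these rebuilt hormone limits, not on an annotation by the study. UMIs were summed per library and cell type and divided by the sum over all genes (CPM), with exact Poisson intervals, and ratios had exact conditional intervals. Total UMIs were 19472212 in WT, 23131247 at 1 week and 39408284 at 5 weeks. A gene was called at 2-fold if it had 100 UMIs over both sums, and the 10 genes were counted whether or not they reached this. A gene can reach this minimum through 1 side alone. A count of 0 was taken to allow 3 counts. Correlations used cells thinned at random to 5000 UMIs and genes of a mean of 0.05 or more. Promoter windows came from RefSeq on GRCm38.p6, and all 10 genes matched by symbol. The genes named are the 10 members, the 10 leading genes by likeness, of which 1 is not reported here, and the leading members of each list. The members and lists were chosen with earlier results of these data known. Python 3.11.15, numpy 2.4.6, scipy 1.17.1, matplotlib 3.10.9 and R 4.3.3 with edgeR 4.0.16 (for TMM factors only) were used, and the procedures were tested on simulated data.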

Additional observations from a re-analysis of the deposited data

Results flagged for a closer look

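Barcodes outside the 3 cell types entered no comparison, and in the mutant libraries several of the 10 genes were higher in them than in the 340 such barcodes of WT. In the 1525 barcodes of 1 week, most of them below the minimum depth, Ddit3 was at 1307 CPM against 51.8 in WT, Nupr1 at 1152 against 794, Atf5 at 469 against 48.6 and Atf4 at 319 against 89.4. There Cebpb was at 215 CPM against 39.2 in WT, Asns at 154 against 28.2, Ppp1r15a at 120.03 against 36.1 and Trib3 at 106 against 4.71. Sesn2 was at 62.2 CPM against 4.71 and Chac1 at 48.8 against 10.98. In the 1492 barcodes of 5 weeks, Atf4 was at 173 CPM, Ddit3 at 151, Ppp1r15a at 137 and Cebpb at 71.3, each above its WT value. Cell types were not separated among barcodes outside the 3 types. In WT, barcodes with 20% or more of acinar UMIs held 3014 CPM of Nupr1, and their number among the 340 was not counted.

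Ppp1r15a differed in direction between cell types from 1 week to 5 weeks, with a log2 ratio of 1.60 in delta and −0.70 in beta cells. The difference itself was not tested, since each condition was 1 library.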

How the results depend on the processing

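No paired analysis was possible because each condition was 1 library and the labels carry no replicate numbers. Of 451 counts recomputed under the alternatives, 408 stayed within 1.5 times their value, and of 1729 ratios of single genes 1306 moved by less than their counting interval, 416 moved further and 7 reversed; the cause was not tested. Some alternatives (thinning to 500, acinar-rich cells left out, cells meeting 2 rules kept, 1-week barcodes under 5000 UMIs) were chosen after seeing the data. The share of all genes past 2-fold was not computed under the alternatives, so these counts have none beside them. The reversals were Sesn2 in beta over delta cells at 5 weeks (0.028 with hormone genes left out, 0.0024 with median-of-ratios factors and 0.21 with TMM factors), Chac1 in beta over delta cells of WT thinned to 1000 UMIs (−0.67), Chac1 from 1 to 5 weeks in beta cells with 1-week barcodes under 5000 UMIs (0.051), and Atf4 in delta cells thinned to 500 UMIs (−0.94 for 1 week over WT and 1.49 for 5 weeks over 1 week). For 5 weeks over WT in alpha cells, 1 gene past 2-fold became 2 with hormone genes or acinar-rich cells left out or thinning to 500, 3 with thinning to 1000 or a 1.5-fold limit and 4 in cells of 2000 or more UMIs. In delta cells 1 became 2 with the mean of each cell's CPM, the deepest 5% left out, cells of 2 rules kept or thinning to 500, and 4 with thinning to 1000 or 1.5-fold. In beta cells 4 became 8 at 1.5-fold, or 7 relative to the median gene. The 9 genes above WT at 1 week relative to the median gene were 5 in barcodes under 5000 UMIs, and the 6 of alpha cells were 10 with thinning to 500. For beta over delta cells at 1 week 3 became 6 with hormones left out or TMM, and relative to the median gene 4 became 2 with thinning to 1000 or 3-fold and 7 at 1.5-fold. In WT 5 relative calls became 3 with thinning to 1000 or 3-fold and 8 at 1.5-fold. At 5 weeks 7 calls without this scaling became 4 with thinning to 1000 and 3 at 3-fold, while the relative count stayed 6. For beta over alpha cells 3-fold left 3 of 5 relative calls in WT, and at 5 weeks 2 of 5 calls without this scaling and 4 of 6 relative ones. Of pairs with r of 0.2, WT had 0 when thinned to 1000, 1 week had 10 at a limit of 0.3, 6 when thinned to 1000 and 8 at 2000 UMIs outside hormone genes, and 5 weeks had 2 at a limit of 0.1. Not run were the study's cell limits at 1 week, the minimum of 2000 UMIs in delta cells, and for delta cells at 1 week the other libraries' hormone limits and barcodes under 5000 UMIs, since too few cells were left. Depth limits Trib3, Chac1 and Sesn2 most, above all in delta cells.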
